A study of Mus musculus with 6 samples.

Results

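The aquaporins are a family of membrane channels, and the 10 mouse genes examined here (Aqp1, Aqp2, Aqp3, Aqp4, Aqp5, Aqp6, Aqp7, Aqp8, Aqp9 and Aqp11) were taken by symbol from the 40993 genes of the deposited table. Each symbol occurred once. RNA of whole kidneys from C57BL/6 mice aged 2 months was sequenced after an adenine-enriched diet (3 samples, adenine 1 to 3) or a standard diet (3 samples, standard 1 to 3). Excess adenine is turned into a poorly soluble product that injures the tubules of rodents. Neither the amount of adenine nor the length of feeding is stated in the labels. Whether each sample is 1 animal is not stated either, and p-values reflect only the variation among these libraries, which may be technical. Levels are FPKM, which scale fragments to the length of the transcript and the size of the library. The number after ± is always the SD of 3 libraries.

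Water crosses cell membranes quickly only where an aquaporin is present. In the kidney, Aqp1 carries water out of the proximal tubule and the thin descending limb and also lies in the endothelium of the descending vasa recta. In principal cells of the collecting duct, Aqp2 is moved to the luminal membrane when vasopressin raises cAMP, and water leaves across the opposite membrane through Aqp3 and Aqp4. Aqp6 lies in vesicles of intercalated cells, Aqp7 carries glycerol and water in the straight part of the proximal tubule, and Aqp11 lies inside proximal tubule cells, where its loss in mice gives cysts. Aqp5, Aqp8 and Aqp9 are better known from glands, from gut and pancreas, and from liver and leukocytes.

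Estimated depth was 17500000 to 23460000 fragments in adenine libraries and 17240000 to 20340000 in standard libraries. The median log2 change of all tested genes was 0.25 toward the adenine diet, and median-of-ratios scaling, which divides each library by its median ratio to the average library, took this out (median -0.01). Values after that scaling are given where they matter. Standard 3 stood apart from the other standard libraries in some genes of the medulla. Its summed level of 10 thin limb genes was 260.2 FPKM, against 401 and 405 in standard 1 and 2, and adenine 3 was nearly as low, at 264 FPKM, against 371 and 342 in adenine 1 and 2. The urea transporter gene Slc14a2 was at 20.9 FPKM in standard 3, against 57.8 and 55.9 in standard 1 and 2. The osmolyte gene Slc5a3 went the other way, at 121.2 FPKM in standard 3, against 71.4 and 76.1 in standard 1 and 2. All 12 listed proximal tubule genes were present in every library.

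Aqp4, Aqp11, Aqp7 and Aqp1 were lower in kidneys on the adenine-enriched diet than on the standard diet, 5.0-, 2.52-, 1.76- and 1.66-fold by mean FPKM. No aquaporin passed the test in the other direction. With a mean of at least 0.5 FPKM, 8 of the 10 genes were tested (all but Aqp5 and Aqp9), and 4 of the 8 fell (limma with Benjamini-Hochberg adjustment over 15431 genes, adjusted p under 0.05). Over all tested genes 6.84% fell and 29.7% rose by the same rule. In the same 4 genes every adenine library lay below every standard library, as in 11.8% of all tested genes, and the reverse, true of 44.4% of all tested genes, held for none of the 8. The median log2 change of the 8 aquaporins was -0.55. These changes are on the log2(FPKM + 1) scale, which understates the change of low genes. After median-of-ratios scaling 5 of the 8 fell and none rose, with a median of -0.85, against 15.3% of all genes lower and 16.7% higher. The summed FPKM of the 10 genes was 467 in adenine 1, 467 in adenine 2 and 499 in adenine 3, against 816, 806 and 733 in standard 1 to 3. In bulk RNA, fewer cells of a type and less RNA per cell cannot be told apart.

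**Figure D1:**
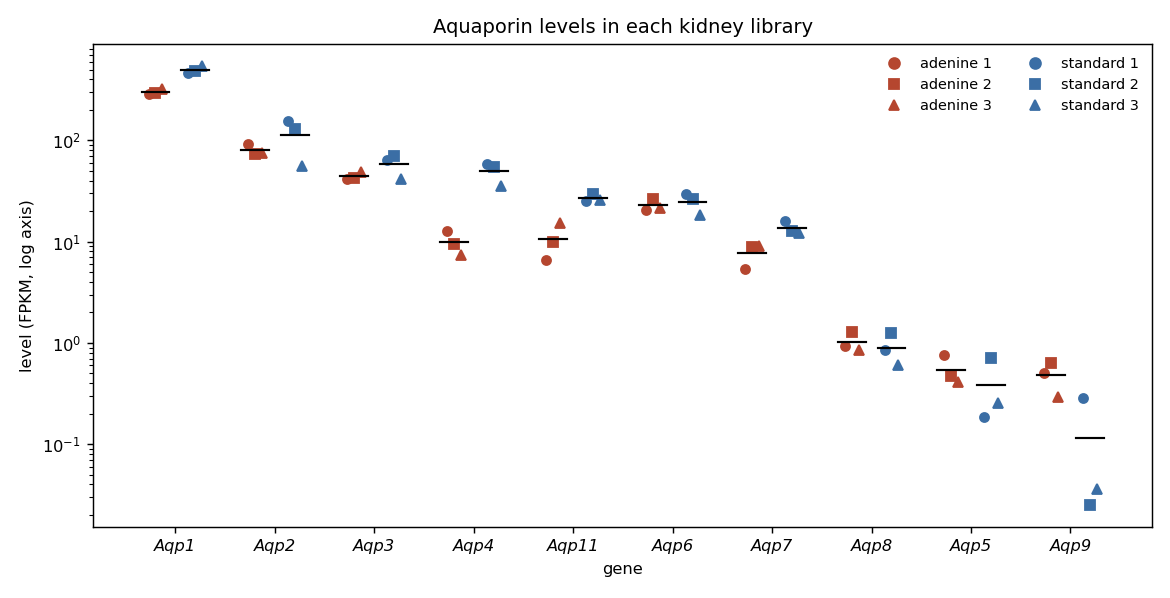
Level of each aquaporin in FPKM on a log axis, with genes from left to right by their standard mean. Symbols are single libraries, black lines are means of 3, and red (adenine) and blue (standard) do not overlap for Aqp1, Aqp4, Aqp11, Aqp7 and Aqp9, where standard 2 and 3 are under the detection limit and standard 1 (0.287 FPKM) is nearly level with adenine 3 (0.291 FPKM).

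On the adenine diet Aqp1 led at a mean of 299.9 FPKM, before Aqp2 at 80.4, Aqp3 at 44.0, Aqp6 at 22.9, Aqp11 at 10.6, Aqp4 at 9.86 and Aqp7 at 7.69. Aqp8, Aqp5 and Aqp9 followed at 1.03, 0.544 and 0.477 FPKM. Among neighbours in that order, Aqp11 and Aqp4, Aqp4 and Aqp7, and Aqp5 and Aqp9 had overlapping ranges over the 3 libraries. On the standard diet the mean levels were 497 FPKM for Aqp1, 114 for Aqp2, 58.9 for Aqp3, 49.3 for Aqp4, 26.7 for Aqp11, 24.7 for Aqp6 and 13.5 for Aqp7. There Aqp2 overlapped Aqp3, Aqp3 overlapped Aqp4, and Aqp11 overlapped Aqp6. By mean level Aqp4 stood next after Aqp3 on the standard diet, and after Aqp6 and Aqp11 as well on the adenine diet. Aqp1 made up 62.8% ± 1.38 of the summed aquaporin FPKM on the adenine diet and 63.6% ± 9.11 on the standard diet, and the share of Aqp4 was 2.08% ± 0.628 against 6.24% ± 1.23.

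**Figure D2:**
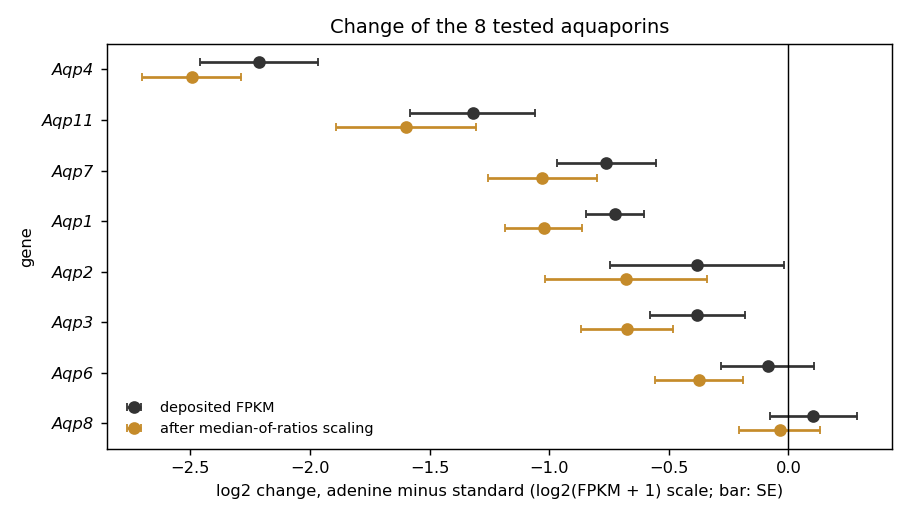
Log2 change of the 8 tested aquaporins, adenine minus standard, with SE, from the deposited FPKM and after median-of-ratios scaling. Aqp4 lies farthest below 0 (-2.21 and -2.49), and Aqp8 is the gene whose sign differs between the scalings (0.10 and -0.04).

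Promoter sequences are shown for the collecting duct genes Aqp2 and Aqp3 and for the proximal tubule genes Aqp1, Aqp7 and Aqp11 because the results turn on these genes. They are the 250 bases before a RefSeq start site (GRCm38.p6), written 5′ to 3′ on the strand of the gene. RefSeq windows matched 9 of the 10 genes (11 windows); Aqp4 is named only. Capitals mark matches on either strand to any of 7 motifs. These were TATAAA of core promoters, GGGCGG bound by Sp factors, TGACGT from the start of the cAMP response element, AGATAA bound by factors of the Gata family, AGGTCA bound by nuclear receptors, CACGTG known as an E-box, and lastly CCAAT bound by nuclear factor Y.
Aqp2, chr15:99578806-99579055, plus strand: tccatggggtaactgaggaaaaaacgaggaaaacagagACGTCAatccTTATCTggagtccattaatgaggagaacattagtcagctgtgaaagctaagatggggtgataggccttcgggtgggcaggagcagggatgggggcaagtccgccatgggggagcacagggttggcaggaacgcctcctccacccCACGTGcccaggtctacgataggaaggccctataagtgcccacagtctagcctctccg
Aqp3, chr4:41098184-41098433, minus strand: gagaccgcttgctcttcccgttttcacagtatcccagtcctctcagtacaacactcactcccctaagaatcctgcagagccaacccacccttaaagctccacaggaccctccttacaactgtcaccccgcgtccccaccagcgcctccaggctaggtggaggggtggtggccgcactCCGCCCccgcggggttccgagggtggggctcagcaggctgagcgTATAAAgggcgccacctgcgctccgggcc
Aqp1, chr6:55336049-55336298, plus strand: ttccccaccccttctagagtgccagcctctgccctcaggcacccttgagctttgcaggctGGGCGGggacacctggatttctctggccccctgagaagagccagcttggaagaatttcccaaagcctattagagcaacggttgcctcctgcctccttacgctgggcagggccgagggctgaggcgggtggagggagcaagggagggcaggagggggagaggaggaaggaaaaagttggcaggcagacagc
Aqp7, chr4:41048137-41048386, minus strand: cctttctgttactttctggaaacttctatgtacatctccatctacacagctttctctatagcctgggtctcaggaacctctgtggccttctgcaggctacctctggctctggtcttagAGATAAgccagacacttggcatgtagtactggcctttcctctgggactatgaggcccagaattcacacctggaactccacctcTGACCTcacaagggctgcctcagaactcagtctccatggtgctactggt
Aqp11, chr7:97738248-97738497, minus strand: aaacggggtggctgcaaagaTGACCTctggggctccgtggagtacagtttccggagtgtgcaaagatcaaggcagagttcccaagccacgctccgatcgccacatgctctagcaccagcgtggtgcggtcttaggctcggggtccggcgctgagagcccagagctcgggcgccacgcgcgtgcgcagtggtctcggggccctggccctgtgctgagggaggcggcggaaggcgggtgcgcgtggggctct
The Aqp2 window held TGACGT on the reverse strand 212 bases before the start, AGATAA on the reverse strand at 202 bases and CACGTG at 58 bases, motifs present in 6.47%, 9.99% and 6.02% of all 32851 windows. Cyclic AMP is known to raise transcription of Aqp2 through its promoter. Aqp3 had TATAAA at 29 bases before the start (12.4% of windows) and GGGCGG on the reverse strand at 73 bases (32.7% of windows). AGGTCA, found in 14.02% of windows, was present on the reverse strand in Aqp7 and Aqp11, 49 and 230 bases before the start, and again in the window of a second Aqp7 start. Aqp1 had GGGCGG at 190 bases and none of the other motifs. CACGTG was also present in the windows of Aqp5, Aqp6 and Aqp8, and CCAAT, found in 33.8% of all windows, in no aquaporin window. A match of letters shows no binding, and no match says only that those letters are not in this window.

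Of the channels of the collecting duct, Aqp4 fell, and Aqp2 and Aqp3 did not pass the test. Aqp2 (chromosome 15, 99579056 to 99584545, GRCm38), the channel that vasopressin controls, was at 92.1, 73.5 and 75.6 FPKM in adenine 1 to 3, against 155, 130.3 and 56.3 FPKM in standard 1 to 3. Standard 3 was the lowest of the 6 libraries, so the groups overlapped. The log2 change of -0.38 (SE 0.36) did not pass the test (limma adjusted p = 0.424). Without standard 3 it was -0.82 (adjusted p = 0.0294), and over the other alternatives adjusted p lay between 0.128 and 0.841.

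Aqp3 (chromosome 4, 41092722 to 41098183), a channel for water and glycerol on the blood side of principal cells, was at 41.2, 42.2 and 48.7 FPKM in adenine 1 to 3, against 64.6, 70.1 and 41.8 FPKM in standard 1 to 3. Standard 3 lay among the adenine libraries here too. The log2 change was -0.38 (SE 0.20, limma adjusted p = 0.17). It passed after median-of-ratios scaling (-0.67, adjusted p = 0.0395, and 0.0727 when same-numbered samples were also paired) and without standard 3 (-0.61, adjusted p = 0.0301). Adjusted p was 0.113 to 0.401 in the other alternatives.

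Aqp4 (chromosome 18, 15389394 to 15403684), the other channel of the blood side and the main water channel of brain astrocytes, was at 12.7, 9.57 and 7.31 FPKM in adenine 1 to 3, against 58.5, 54.1 and 35.5 FPKM in standard 1 to 3. Every adenine library was below every standard library, the low standard 3 included. The log2 change was -2.21 (SE 0.25, limma adjusted p = 0.0042), and it was called in each of 17 alternatives, with values between -2.49 and -2.03. An antisense gene, AC133525.2, overlaps its 5′ end in GENCODE. Whether strand was used in counting is not given in the sources used here, so reads of the 2 strands cannot be told apart.

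Ratios within a library do not depend on the scaling between libraries. The ratio of Aqp4 to Aqp3 was 0.308, 0.227 and 0.15 in adenine 1 to 3, against 0.905, 0.771 and 0.849 in standard 1 to 3. The ratio of Aqp4 to Aqp2 was 0.138, 0.13 and 0.0967, against 0.377, 0.415 and 0.63. Neither ratio overlapped between the diets, with log2 differences of -1.93 each (exact permutation test, two-sided, p = 0.10 each, the smallest value that 3 against 3 can give, and 0.25 adjusted over 5 ratios). Aqp3 to Aqp2 was 0.447, 0.574 and 0.645 against 0.417, 0.538 and 0.742, and these overlapped. Their log2 difference was -0.0025 (exact permutation p = 1.0).

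**Figure D3:**
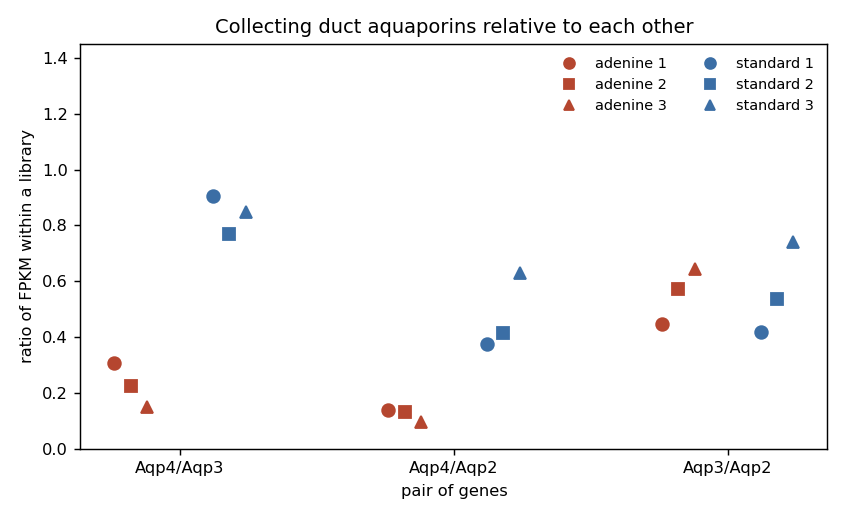
Ratios of FPKM between collecting duct aquaporins within each library, adenine (red) left of standard (blue). Aqp4 relative to Aqp3 was at most 0.308 on the adenine diet and at least 0.771 on the standard diet, while Aqp3 relative to Aqp2 overlapped.

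Of 12 listed principal cell genes other than aquaporins, 2 rose and none fell (3 rose and 1 fell when same-numbered samples were paired), with a median log2 change of 0.32, against 0.25 for all tested genes. Over all tested genes 29.7% rose and 6.84% fell. The sialyltransferase gene St6gal1 was at 24.2 ± 11.3 FPKM on the adenine diet and 9.1 ± 3.29 FPKM on the standard diet (limma adjusted p = 0.031, or 0.0553 once libraries were rescaled). Whether cells other than principal cells add to the level of St6gal1 was not tested. The hormone gene Stc1 was at 4.67 ± 1.2 against 1.85 ± 0.547 FPKM (limma adjusted p = 0.0164). With that rescaling Stc1 rose and Avpr2 and Fxyd4 fell, against 16.7% higher and 15.3% lower among all tested genes. Leaving out 1 library gave 0 to 3 rises and 0 to 2 falls. The sodium channel subunit genes Scnn1a, Scnn1b and Scnn1g, the enzyme gene Hsd11b2 and the transcription factor gene Gata3 had log2 changes of -0.04, 0.32, 0.26, 0.32 and 0.41, none past the threshold.

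Set against the mean log2 level of these markers in the same library, Aqp4 was -0.19, -0.48 and -0.69 in adenine 1 to 3 and 2.18, 1.94 and 1.75 in standard 1 to 3, a difference of -2.41. The same quantity for Aqp3 was 1.43, 1.55 and 1.89 against 2.33, 2.30 and 1.98, a difference of -0.58, and the diets did not overlap for either gene (exact permutation p = 0.10 each, 0.18 adjusted over 9 such comparisons). For Aqp2 the difference was -0.58 as well, but standard 3 lay within the adenine range (exact permutation p = 0.3, or 0.45 adjusted over 9). Elf5, a transcription factor of principal cells, was at 5.37, 3.7 and 1.98 FPKM in adenine 1 to 3 and 12.4, 14.6 and 3.19 FPKM in standard 1 to 3 (limma adjusted p = 0.147), and was low in standard 3 as Aqp2 was. The part of medullary content in the values of standard 3 was not tested. Aqp4 was compared with no other marker list, and the part of other cells in its level was not tested.

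**Figure D4:**
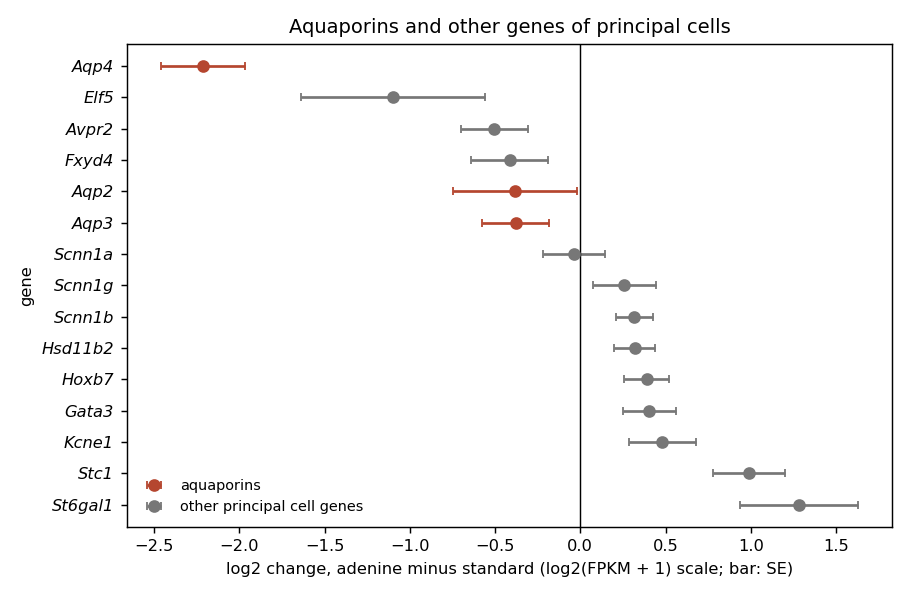
Log2 change, adenine minus standard, with SE, of Aqp2, Aqp3 and Aqp4 (red) and of 12 other principal cell genes (grey). Aqp4 lies at -2.21, below the other 14 genes, of which Elf5 is the nearest at -1.10.

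Vasopressin acts on Aqp2 through a receptor, the G protein subunit made from Gnas, adenylyl cyclase and protein kinase A. The receptor gene Avpr2 was at 12, 13.4 and 11.3 FPKM in adenine 1 to 3, against 21.6, 20.1 and 12.8 FPKM in standard 1 to 3, with a log2 change of -0.50 (limma adjusted p = 0.084) and of -0.78 after median-of-ratios scaling (adjusted p = 0.0203). Of 16 genes of the receptor and cAMP list, 6 rose and none fell, and after scaling 3 rose and Avpr2 fell. These counts are near the shares of all tested genes, of which 29.7% rose and 6.84% fell (16.7% and 15.3% after scaling). Ptger4, a prostaglandin E2 receptor that raises cAMP, was at 9.22 ± 1.93 against 2.28 ± 0.275 FPKM (limma adjusted p = 0.00405). The cyclase gene Adcy3 was at 3.74 ± 0.936 against 0.94 ± 0.0832 FPKM (limma adjusted p = 0.00619). Both kept their direction and call after scaling (log2 changes of 1.38 and 1.08). Adcy6, the cyclase known to serve vasopressin in this segment, had a log2 change of 0.28 (limma adjusted p = 0.0831) that was -0.02 after scaling. Without 1 library the list held 2 to 7 rises and 0 to 1 falls. Avpr2 belongs to this list and to the principal cell list.

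Of 18 genes that move vesicles with water channels, 5 rose and none fell, near the 29.7% of all tested genes that rose, with a median log2 change of 0.14, below the 0.25 of all genes. After median-of-ratios scaling 1 rose and 2 fell, so 4 of the 5 calls ended with scaling. Shares of all tested genes were then 16.7% higher and 15.3% lower. The dynein heavy chain gene Dync1h1 was at 54.7 ± 3.01 against 33.1 ± 2.29 FPKM and rose under both scalings (log2 changes of 0.71 and 0.42, limma adjusted p = 0.00508 and 0.025). Arhgdib, which leukocytes also express, was at 36.9 ± 18.9 against 15.2 ± 2.93 FPKM (limma adjusted p = 0.0456, and 0.0791 after scaling). Without 1 library 1 to 5 of the 18 rose. Rab11a and Rab5b, which direct recycling and early endosomes, had log2 changes of -0.14 and -0.06, and were the 2 that fell after scaling (-0.43 and -0.36).

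Of 12 transcription regulators of the collecting duct, 2 rose and 1 fell, and after scaling 1 rose and 1 fell (1 to 3 rises and 0 to 1 falls without 1 library, and 3 rises and 2 falls when same-numbered samples were paired). The shares of all tested genes were 29.7% higher and 6.84% lower (16.7% and 15.3% after scaling). Elf3, an epithelial factor, was at 29.7 ± 7.87 against 11.5 ± 2.08 FPKM (limma adjusted p = 0.0082). Nr1h4, the bile acid receptor, which raises Aqp2 in mouse collecting duct, was at 27.9 ± 3.47 against 46.6 ± 12.4 FPKM (limma adjusted p = 0.0442). Where in the kidney Nr1h4 fell was not tested. Nfat5, the factor of the response to hypertonicity, was at 33.8 ± 5.36 against 24 ± 3.21 FPKM (limma adjusted p = 0.0498, and 0.261 after scaling). It was the 1 rise among 10 osmolyte and urea transport genes, of which none fell, with a median log2 change of -0.43. Without 1 library 0 to 1 rose and 0 to 2 fell, and without standard 3 none rose, 2 fell and the median was 0.05. Akr1b3, the aldose reductase that makes sorbitol in the medulla, was at 136, 103 and 92 FPKM in adenine 1 to 3 and at 248, 435 and 126 FPKM in standard 1 to 3 (limma adjusted p = 0.0798), and fell after scaling (adjusted p = 0.0377).

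Aqp6 (chromosome 15, 99601400 to 99605477), an anion-permeable channel of intercalated cells, was at 20.4, 26.5 and 21.7 FPKM in adenine 1 to 3, against 29.6, 26.2 and 18.1 FPKM in standard 1 to 3. The ranges overlapped, and the log2 change was -0.09 (SE 0.19, limma adjusted p = 0.739). Of 12 other intercalated cell genes, 3 fell and 1 rose, and after scaling 4 fell and none rose, while with same-numbered samples paired 1 fell and 1 rose. By the same rule 6.84% of all tested genes fell and 29.7% rose (15.3% and 16.7% after scaling). Atp6v1g3, a proton pump subunit, was at 14.8 ± 2.01 against 26.6 ± 2.75 FPKM, and the anion exchanger Slc4a1 was at 31.6 ± 8.83 against 57.4 ± 12.2 FPKM (limma adjusted p = 0.00762 and 0.039). Kit, a receptor, was the 1 rise, at 7.33 ± 1.02 against 5.06 ± 0.571 FPKM (limma adjusted p = 0.0445, and 0.184 after scaling). Relative to the mean log2 level of the intercalated list, Aqp6 was 0.23 higher on the adenine diet, with overlapping libraries (exact permutation p = 0.5). Without 1 library the list held 1 to 6 falls.

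Aqp2, Aqp5 and Aqp6 lie side by side on the plus strand of chromosome 15 within 26422 bp, with 6303 and 6570 bp between them. Their levels were far apart, since Aqp5 (99590849 to 99594829), a channel of salivary and lung secretory cells, was at 0.751, 0.469 and 0.413 FPKM in adenine 1 to 3 and at 0.184, 0.706 and 0.257 FPKM in standard 1 to 3. These correspond to about 5.99 to 27.3 fragments a library. The groups overlapped, and with no filter on low values the log2 change was 0.17 (limma adjusted p = 0.475). Aqp7 and Aqp3 are neighbours on the minus strand of chromosome 4, 44582 bp apart.

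The other 3 falls were in Aqp1, Aqp11 and Aqp7, channels known from the proximal tubule. Whether proximal tubule cells add to the level of Aqp4 was not tested. Aqp1 (chromosome 6, 55336432 to 55348555), the most abundant of the family, was at 286, 294 and 319 FPKM in adenine 1 to 3, against 466, 481 and 543 FPKM in standard 1 to 3. Its libraries were tight within each diet and did not overlap between diets. The log2 change was -0.72 (SE 0.12, limma adjusted p = 0.00856), and it was called in each of 17 alternatives, with changes from -1.02 to -0.58. Unlike the collecting duct channels, Aqp1 was highest in standard 3.

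Aqp11 (chromosome 7, 97726379 to 97738247), an intracellular channel, was at 6.63, 9.96 and 15.2 FPKM in adenine 1 to 3, against 24.9, 29.3 and 25.9 FPKM in standard 1 to 3. The adenine libraries differed more among themselves (coefficient of variation 40.9%) than the standard libraries (8.68%), and all lay below them. The log2 change was -1.32 (SE 0.26, limma adjusted p = 0.0133), and it was called in each of 17 alternatives, with adjusted p of 0.0494 without adenine 2 as the highest.

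Aqp7 (chromosome 4, 41033074 to 41048139), an aquaglyceroporin also known from fat cells, was at 5.32, 8.76 and 9 FPKM in adenine 1 to 3, against 15.8, 12.7 and 12 FPKM in standard 1 to 3. The groups did not overlap. The log2 change was -0.76 (SE 0.21, limma adjusted p = 0.0322), and the call ended when same-numbered samples were paired in the fit (adjusted p = 0.0592), with no filter on low values (0.0531), without standard 1, 2 or 3 (0.0957, 0.076 and 0.0661) and without adenine 2 (0.0625). After median-of-ratios scaling it was -1.03 (adjusted p = 0.0198). Adiponectin (Adipoq), a defining fat cell gene, was at 2.39, 4.1 and 0 FPKM in adenine 1 to 3 and at 2.23, 3.03 and 0 FPKM in standard 1 to 3. In the pair of libraries where it was listed at 0, adenine 3 and standard 3, Aqp7 was at 9 and 12 FPKM. Of the 8 adipocyte genes, 7 were tested, and Lpl alone fell, at 139 ± 59.1 against 296 ± 42.3 FPKM (limma adjusted p = 0.0361). Shares of all tested genes were 6.84% lower and 29.7% higher. Lpl was highest of its diet in adenine 3 and standard 3 (192.5 and 325.4 FPKM), the libraries where Adipoq was listed at 0. The summed level of the 8 adipocyte genes was 656 to 1116 FPKM on the adenine diet and 1056 to 1405 FPKM on the standard diet, most of it Pck1, which the proximal tubule also expresses.

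Of 12 proximal tubule genes, 9 fell and none rose, with a median log2 change of -0.90, and the same counts held after scaling. Among all tested genes 6.84% fell, and 15.3% after scaling. The glucose transporter gene Slc5a2 was at 36.6 ± 7.5 against 104.7 ± 23.2 FPKM, and the acyl-CoA synthetase gene Acsm2 at 571 ± 335 against 1577 ± 147 FPKM (limma adjusted p = 0.00628 and 0.0336). Without 1 library 3 to 10 of the 12 fell. Of 10 genes of the straight part, 2 fell and none rose (3 fell after scaling, 1 to 7 without 1 library). They were Slc3a1, of cystine transport, at 133 ± 31.2 against 292 ± 28.2 FPKM, and Slc1a1, a glutamate transporter, at 35.4 ± 12.6 against 60.5 ± 3.49 FPKM (limma adjusted p = 0.00824 and 0.0485).

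Relative to the mean log2 level of the proximal tubule list in the same library, Aqp1 was 2.19, 1.72 and 1.39 in adenine 1 to 3 and 1.70, 1.42 and 1.44 in standard 1 to 3, which overlap (difference 0.25, exact permutation p = 0.5, or 0.5625 adjusted over 9). Aqp11 was -3.05, -3.03 and -2.91 against -2.48, -2.57 and -2.90, with adenine 3 and standard 3 nearly equal (difference -0.35, exact permutation p = 0.10, or 0.18 adjusted over 9). The summed FPKM of the list was 1690, 2769 and 4440 in adenine 1 to 3, against 5180, 5992 and 6160 in standard 1 to 3, so adenine 1 was lowest and adenine 3 highest of its diet, as for Aqp11. The part of proximal tubule content in these levels was not tested. Aqp7 overlapped relative to the straight part (difference -0.14, exact permutation p = 0.7). The ratio of Aqp7 to Aqp1 also overlapped (log2 difference -0.11, exact permutation p = 0.7).

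Thin limb and endothelial cells also carry Aqp1. Relative to the thin limb list it was 3.53, 3.78 and 4.24 in adenine 1 to 3 and 4.51, 4.59 and 5.47 in standard 1 to 3, a difference of -1.01, and relative to the endothelial list the difference was -0.86. Neither overlapped (exact permutation p = 0.10 each, 0.18 adjusted over 9). Of the 10 thin limb genes, 3 rose and 2 fell (1 to 3 each without 1 library, and 5 and 3 when same-numbered samples were paired). After scaling 3 rose and 3 fell. Of all tested genes 29.7% rose and 6.84% fell (16.7% and 15.3% after scaling). The claudin gene Cldn4, which the collecting duct also expresses, was at 57.4 ± 21.8 against 16.4 ± 8.18 FPKM, and Fst, which encodes follistatin, at 6.22 ± 1.3 against 1.83 ± 0.723 FPKM (limma adjusted p = 0.0185 and 0.0088). The chaperone gene Cryab was lower, at 98 ± 11.3 against 171.6 ± 23.3 FPKM (limma adjusted p = 0.00985).

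Of 10 endothelial genes, 3 rose and none fell, near the 29.7% of all tested genes that rose. After scaling none rose and 3 fell, against 16.7% higher and 15.3% lower among all tested genes. Without any 1 library 0 to 1 rose and 0 to 1 fell, and with same-numbered samples paired 1 rose and none fell. Tie1, at 22.9 ± 0.615 against 16.1 ± 1.32 FPKM, and Egfl7, at 65.9 ± 2.74 against 52.6 ± 4.73 FPKM, had limma adjusted p of 0.0119 and 0.0376, and of 0.102 and 0.847 after scaling. Red cells also carry Aqp1. Of 6 tested erythroid genes Slc4a1, which intercalated cells share, fell (none fell when same-numbered samples were paired), against 6.84% of all tested genes. The list's summed level was 61.3 to 163 FPKM on the adenine diet and 76.1 to 113 FPKM on the standard diet. The part of these cells in the level of Aqp1 was not tested.

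Aqp8 and Aqp9 were low in every library. Aqp8 (chromosome 7, 123462294 to 123468003), known from gut and pancreas, was at 0.938, 1.29 and 0.85 FPKM in adenine 1 to 3 and at 0.844, 1.24 and 0.6 FPKM in standard 1 to 3, about 13.3 to 39.1 fragments a library. The ranges overlapped and the log2 change was 0.10 (limma adjusted p = 0.657), with the sign turned after scaling (-0.04).

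Aqp9 (chromosome 9, 71110659 to 71168682), an aquaglyceroporin of hepatocytes and leukocytes, was at 0.503, 0.637 and 0.291 FPKM in adenine 1 to 3, against 0.287, 0.0252 and 0.0362 FPKM in standard 1 to 3. The groups did not overlap, but adenine 3 and standard 1 were nearly equal. Standard 2 and 3 correspond to about 1.08 and 1.53 fragments, under the 3 fragments (0.0711 FPKM) taken as the limit, so no fold is given. With no filter on low values the log2 change was 0.41 (limma adjusted p = 0.0691). Of the neutrophil and macrophage list, 9 of 10 genes were in the table, 7 were tested, 5 rose and none fell. Over all tested genes 29.7% rose and 6.84% fell. Lyz2 was at 738 ± 380 against 49.3 ± 10.2 FPKM and Itgam at 13.3 ± 4.78 against 0.707 ± 0.0179 FPKM (limma adjusted p = 0.00332 and 0.00329). The summed level of the list was 576 to 1329 FPKM on the adenine diet and 79.2 to 92.9 FPKM on the standard diet. The neutrophil gene Ly6g was at 0.127 and 0.0609 FPKM in adenine 1 and 2. It was listed at 0 in adenine 3 and in all standard libraries. Cxcr2 was at 0.618, 1.14 and 0.38 FPKM in adenine 1 to 3, against 0.052, 0 and 0 in standard 1 to 3. Both averaged under 0.5 FPKM and were not tested. Of 4 tested liver or gut genes, Cela1 fell, at 8.82 ± 1.59 against 19 ± 2.32 FPKM (limma adjusted p = 0.00706; 2 of the 4 fell when same-numbered samples were paired), and the gut genes Cel and Fabp2 were listed at 0 throughout. Whether leukocytes carry the Aqp9 signal was not tested. An antisense gene, Gm32511, and a pseudogene, Gm47268, overlap Aqp9.

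Aqp3 also lies in urothelium. Of 8 urothelial genes Krt20, a keratin that injured tubules can also express, was the 1 that rose and none fell (2 rose when same-numbered samples were paired), at 7.14 ± 2.1 against 0.266 ± 0.228 FPKM (limma adjusted p = 0.00332), and the list summed to 40.2 to 60.6 FPKM on the adenine diet and 27.2 to 32.8 FPKM on the standard diet. Among all tested genes 29.7% rose and 6.84% fell.

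The genes with the profile nearest to each called aquaporin were sought among the 10484 genes averaging 5 FPKM or more, by the root-mean-square difference of centred log2(FPKM + 1) over the 6 libraries. For Aqp1 they were Cox16, Timm17a and Tmem126a (differences of 0.0254, 0.0416 and 0.0478). For Aqp11 they were Macrod2, Acat1 and Ass1 (0.0707, 0.0804 and 0.0822), and for Aqp7 they were Ftcd, Slc13a2 and Zmynd10 (0.103, 0.103 and 0.107). No gene came that near to Aqp4. Its nearest were Afm, Gm10039 and Car14, at 0.485, 0.498 and 0.516. The difference is not scaled to the size of a gene's change. Its median over the 10484 genes was 1.25 for Aqp4, against 0.503 for Aqp1, 0.573 for Aqp7 and 0.854 for Aqp11.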

How the data were processed

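Per the labels' protocols, total RNA of whole kidneys was made into libraries with the TruSeq RNA kit from 1 μg of RNA and sequenced as 100 bp read pairs on a HiSeq2500. Cufflinks 2.1.1, TopHat and bcl2fastq 2.0 are listed in the submitters' processing notes, with mm10 and GRCm38. No source used here states the annotation. For the 6 samples the deposited values are FPKM. Another table, with 6 value columns of samples outside the sample list, was not used.

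Log2(FPKM + 1) was fitted for genes averaging 0.5 FPKM or more with limma 3.58.1 (R 4.3.3; intensity trend, two-sided, Benjamini-Hochberg over all genes tested, threshold 0.05), and the code was tested on simulated data. Ratios within a library (pseudocount 0.1) and to marker lists were compared by exact permutation. FPKM keep no counts. Depth was inferred from the spacing of small values in long single-transcript genes with a nominal fragment of 200 bp, where 65.4% to 73.4% of values lay within 0.15 of a whole number, so no count test was run, fragment numbers are approximate, and limits cover counting error only. Same-numbered samples of the 2 diets had correlated deviations from their diet mean (0.257, 0.143 and 0.181), and differently numbered ones -0.187 to 0.0376, which meets the rule for pairing, although no label states it. All p-values are nevertheless from unpaired tests unless pairing is named; the fit with the replicate number as a block was an alternative, given where it ends a call or moves a count by over 1.5 times.

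The 10 genes and 15 lists (163 entries, 162 in the table) were chosen with earlier results of these data known. Named genes were the 10 aquaporins, up to 2 rises and 2 falls per list (or the smallest p), and 3 nearest profiles per called aquaporin. The sodium channel genes, Hsd11b2, Gata3, Elf5, Avpr2, Adcy6, Fxyd4, Rab11a, Rab5b, Akr1b3, Slc14a2, Slc5a3, Adipoq, Pck1, Ly6g, Cxcr2, Cel and Fabp2 were named after their values were seen, and the 7 promoter motifs were chosen then too. The values of 1 thin limb gene that this rule names are not reported here.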

Additional observations from a re-analysis of the deposited data

How the results depend on the processing

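Between 3 and 5 aquaporins were lower under each alternative and none was higher. Aqp1, Aqp4 and Aqp11 were called in all alternatives. The counts over all genes moved most. After median-of-ratios scaling 2570 genes were higher and 2346 lower, with quantile normalization 2140 and 2237, and with the replicate number as a block and that scaling together 2658 and 2591, against 4581 and 1056 from the deposited FPKM. The block alone gave 4825 and 1132. Leaving out 1 library gave 1888 to 5452 higher and 231 to 1594 lower, the fewest without adenine 2. The block ended no aquaporin call other than that of Aqp7 (adjusted p = 0.0592). Aqp6 turned to 0.056 on the log2 scale without standard 1, with leave-one-out values from -0.28, and Aqp8 turned to -0.037 after median-of-ratios scaling, with or without the block, to -0.31 with quantile normalization and to -0.010 without standard 3 (leave-one-out values up to 0.23). Among ratios, the log2 difference of Aqp3 to Aqp2 was 0.00129 with a pseudocount of 1, and -0.20 to 0.21 with 1 library left out. Aqp7 to Aqp1 ranged from -0.25 to 0.10 and Aqp7 to the straight part from -0.29 to 0.056 with 1 library left out. Those of Aqp4 to Aqp3 and to Aqp2 lay between -2.17 and -1.66 and between -2.08 and -1.71. Depth limits Aqp5, Aqp8 and Aqp9, and the smallest exact p of 0.10 limits every ratio. The cause of these differences was not tested.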
